A study of Mus musculus with 11 samples.

Results

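The comparison described here set the double knockout (DKO) against the NF186 knockout (NFKO). It asked what changed in the RNA when Ank3, the gene for Ankyrin G, was targeted in mice in which Nfasc was already targeted. Its members were the 3 DKO and the 3 NFKO libraries of 11 in the series, taken by their labels, and the 17557 of 22609 listed genes that had at least 10 counts in total over the 11 libraries. The study sequenced polyadenylated RNA in bulk from tissue labelled cerebellar hemisphere, of untreated mice from the same litters, of mixed sex. NFKO mice were Pcp2-Cre;NfascFx/Fx, and DKO mice were Pcp2-Cre;NfascFx/Fx;AnkGFx/Fx. The Pcp2-Cre transgene and the floxed Nfasc alleles were thus common to both groups, and the floxed AnkG alleles set them apart. The levels of 3 control libraries and of 2 AnkGKO libraries (Pcp2-Cre;AnkGFx/Fx) are given where they place a result. The controls lacked Cre, and the paper gives them as NfascFx/Fx;AnkGFx/Fx in one place and as singly or doubly floxed in another. The age was postnatal day 30 in one label and day 32 in another, and the background was given once as C57BL/6J and once as a mix with 129. Pcp2-Cre acts mainly in Purkinje cells, so most cells of a tissue sample were not targeted, and in bulk RNA fewer cells of a type cannot be told apart from less RNA per cell.

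The axon initial segment is the stretch of axon where action potentials start. Ankyrin G is its cytoskeletal scaffold: it binds voltage-gated sodium channels, βIV spectrin and the adhesion molecule NF186, an isoform of neurofascin that is itself held in place by Ankyrin G. In the cerebellum the initial segment of the Purkinje cell is wrapped by basket cell terminals that form the pinceau.

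The NFKO libraries held 50126172 to 53758610 counts on genes and the DKO libraries 42362218 to 55822361, and 3 counts in a library, used here as a floor for counting error only, were worth 0.0546 to 0.0701 CPM (counts scaled to a common library size with edgeR's TMM factors). Defining markers of the labelled tissue were near the floor in several libraries. Pcp2, a Purkinje cell gene, stood at 28.3, 2.14 and 0.0929 CPM in NFKO replicates 1 to 3 and at 0.210, 0.374 and 0.255 CPM in DKO. Gabra6, a marker of cerebellar granule cells, stood at 59.0, 4.24 and 0.0186 CPM in NFKO and at 1.61, 1.00 and 0.528 CPM in DKO. The 12 caudal Hox genes, which mark the posterior body axis and not the cerebellum, summed to 496 to 582 CPM in NFKO and 522 to 564 CPM in DKO. The sexes were not balanced: Xist, the RNA of the inactive X chromosome, stood at 0.344 to 1.39 CPM in NFKO and at 28.4, 459 and 469 CPM in DKO, whereas the Y-linked Ddx3y stood at 89.6 to 94.6 CPM in NFKO and at 108, 0.117 and 0.109 CPM in DKO. DKO replicate 1 thus carried the RNA of a Y-linked gene together with some Xist, and the part of these tissue and sex differences in the results below was not tested beyond the fits with them as covariates.

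Ank3 RNA was lower in every DKO library than in every NFKO library. The gene lies on chromosome 10 (69234603 to 69863268, GRCm39). Its level was 407, 386 and 385 CPM in NFKO and 185, 160 and 174 CPM in DKO. The groups were far apart, and the DKO values lay in the range of the AnkGKO libraries (156 and 200 CPM), while the controls (360, 375 and 353 CPM) lay below NFKO. The log2 fold change of DKO over NFKO was -1.18 ± 0.09 (SE, n = 3 and 3), with a Benjamini-Hochberg adjusted p of 6.15e-05 in the quasi-likelihood test of edgeR. Nfasc on chromosome 1 (132492428 to 132669564), targeted in both groups, stood at 701, 622 and 635 CPM in NFKO and at 559, 606 and 603 CPM in DKO. The DKO values were below those of NFKO without overlap, but the log2 fold change of -0.15 ± 0.09 did not pass the test (edgeR adjusted p = 0.469). The control level of Nfasc was 661 to 718 CPM, so RNA of the targeted gene was present at a similar level in NFKO; counts over a whole gene need not show the loss of its floxed part.

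A gene was called where its adjusted p was under 0.05 and its log2 fold change was 0.6 or more in size, and edgeR called 108 genes, 0.615% of those tested. Of these, 52 were higher and 56 lower in DKO. In all 108 the 3 DKO libraries did not overlap with the 3 NFKO libraries, which was true of 3397 genes, 19.3%, over the whole table. A further 48 genes passed the adjusted p with a smaller fold change, 28 of them higher and 20 lower. At an unadjusted p under 0.05, 7.86% of all genes were higher and 8.29% lower in DKO, and the median log2 fold change of all genes was 0.00. The calls depended on single libraries: 51 of the 108 were called without each of the 6 libraries in turn, and 28 with Xist as a covariate. In all 17 refits with another tool, filter, covariate or set of libraries 22 were called, among them Ank3.

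**Figure D1:**
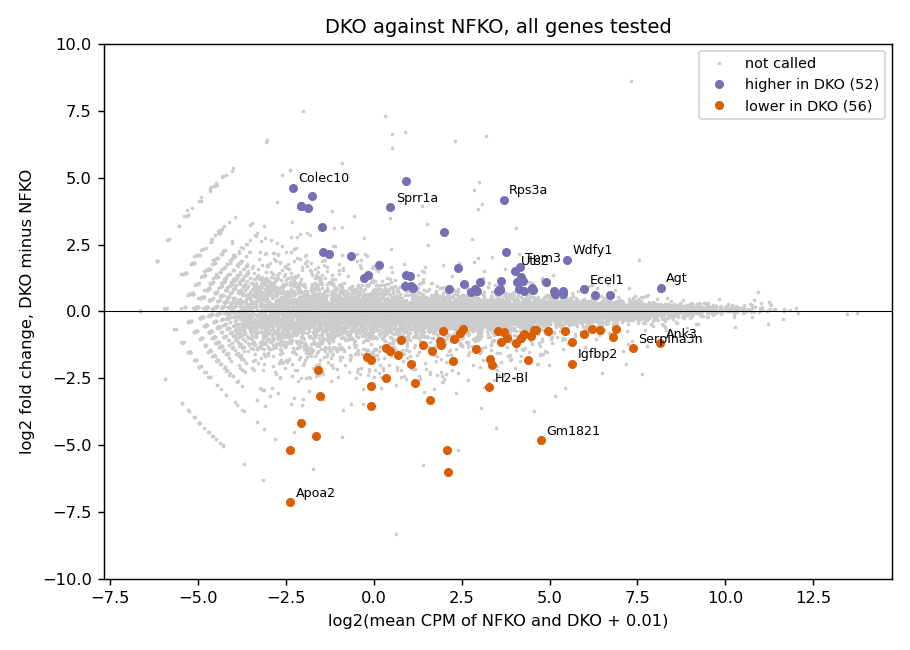
Each point is a gene, with the log2 of the mean CPM of the 6 libraries (plus 0.01) on the x axis and the log2 fold change of DKO over NFKO on the y axis. Coloured points are the 52 genes called higher and the 56 called lower in DKO; grey points were not called.

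For most called genes the control level was nearer to DKO than to NFKO. Placed on the log2 scale between the means of NFKO and DKO, the control mean was nearer to DKO for 89 of the 108 genes and nearer to NFKO for 19. Of the 22 genes called in all 17 refits, 20 were of the first kind, and the exceptions were Ank3 and Ecel1. The clearest was Tpm3, which encodes a tropomyosin of the actin cytoskeleton. Its level was 8.59, 8.44 and 8.47 CPM in NFKO and 23.8, 29.7 and 27.3 CPM in DKO. The controls (25.1 to 27.5 CPM) and AnkGKO (26.1 and 27.1 CPM) lay within the DKO range, so that only NFKO was low among the 4 genotypes. Tpm3 had a log2 fold change of 1.66 ± 0.09, with the smallest adjusted p of all genes (7.3e-06, edgeR).

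Other genes showed this pattern in both directions. Lyrm7, an assembly factor of respiratory complex III, stood at 17, 15.5 and 16.4 CPM in NFKO against 4.88, 3.39 and 4.08 CPM in DKO, with a log2 fold change of -1.99 ± 0.14 (edgeR adjusted p = 5.92e-05). Wdfy1, an endosomal adaptor, stood at 19.6, 16.1 and 20.4 CPM in NFKO against 66.3, 74.8 and 73.8 CPM in DKO, with a log2 fold change of 1.94 ± 0.15 (edgeR adjusted p = 0.000166). For both genes the controls were at the DKO level (3.38 to 3.67 CPM for Lyrm7 and 69.5 to 74.9 CPM for Wdfy1), and for Wdfy1 the AnkGKO libraries were split, at 47.5 and 73.4 CPM. Ublcp1, a phosphatase of the proteasome, had the same split: the AnkGKO libraries stood at 19.3 and 36.1 CPM, beside 16.5 to 20.9 CPM in NFKO and 39.4 to 42.3 CPM in DKO. Its log2 fold change was 1.10 ± 0.19 (edgeR adjusted p = 0.0309), and without single libraries its adjusted p was between 0.0504 and 0.126 in 5 of 6 fits, all but that without NFKO replicate 3. Gm1821 stood at 49.5 to 55.0 CPM in NFKO and at 0.584 to 3.83 CPM in DKO, a log2 fold change of -4.82 ± 0.66 (edgeR adjusted p = 0.0188). It lost its call without NFKO replicate 1, NFKO replicate 2 or DKO replicate 3, at adjusted p-values of 0.0549 to 0.0775.

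The rest of the 15 higher genes with the smallest p-values were Rnps1, a splicing factor, Pkmyt1, an inhibitory kinase of the cell cycle, Alpk1 and Tifa, partners in innate sensing of bacterial sugars, Rps2 and Rps3a, proteins of the small ribosomal subunit, Cyp39a1, an oxysterol hydroxylase, Rnf41, an E3 ubiquitin ligase, Gm5148, Ecel1, Papss2, a sulphate-activating enzyme, Tagap, and Tmem41b, a lipid scramblase. Their log2 fold changes ran from 0.62 (Rnf41) to 4.89 (Gm5148). The rest of the 15 lower genes were Glo1, which detoxifies methylglyoxal, Ank3, Hddc3, Cyb5r2, H2-Bl, Mut, the methylmalonyl-CoA mutase, Dlk2, Serpina3n, Tmem144, Adora2b, an adenosine receptor, H2-T24, Mcf2, 3110052M02Rik and Prss41, from -3.53 (Prss41) to -0.64 (Mut). Without NFKO replicate 2 Rnf41 had a log2 fold change of 0.59, and without DKO replicate 1 Mut had one of -0.60, each just under the fold threshold with adjusted p-values of 0.00393 and 0.00162.

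The called genes were not spread evenly over the genome. Chromosome 17 held 28 of them among 815 tested genes (3.44%), 14 higher and 14 lower in DKO. Of these, 25 lay between 20 and 50 Mb, where 511 genes were tested (4.89%), a stretch that was chosen after the positions were seen and that includes the MHC. In 27 of the 28 the control mean was nearer to DKO than to NFKO. Chromosome 11 held 14 called genes (1.02%), chromosome 3 held 11 (1.31%), and chromosome 16 held none of 520 tested. Within 20 Mb of Ank3, 1 of 376 tested genes was called (Bpifc, which lost its call without any 1 library but DKO replicate 2, at adjusted p-values of 0.0673 to 0.147), and within 20 Mb of Nfasc, none of 181. At an unadjusted p under 0.05 the numbers were 68 of 376 and 30 of 181 genes, where 16.2% of all genes passed. In comparisons with the controls, which share the NFKO and DKO libraries with this one, NFKO had 22 called genes on chromosome 17 and DKO none, where 0.365% and 0.0228% of all genes were called. AnkGKO against control, which shares no library with DKO against NFKO, also had none there.

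Glo1 on chromosome 17 (30803910 to 30845845) stood at 150, 137 and 155 CPM in NFKO and at 73.3, 77.7 and 77.4 CPM in DKO. NFKO was well above all 8 other libraries, which lay between 67.6 and 77.7 CPM, and the log2 fold change was -0.95 ± 0.07 (edgeR adjusted p = 5.66e-05). Rnps1 (24633504 to 24645325) stood at 11.6, 9.90 and 10.7 CPM in NFKO and at 22.9, 23.7 and 22 CPM in DKO, a log2 fold change of 1.09 ± 0.08 (edgeR adjusted p = 6.15e-05). Pkmyt1 (23945254 to 23955710) stood at 2.77, 2.20 and 2.84 CPM in NFKO and at 7.68, 8.55 and 7.55 CPM in DKO, a log2 fold change of 1.60 ± 0.14 (edgeR adjusted p = 0.000173). NFKO was the low group for both, with no overlap with any other library. Rps2 (24937080 to 24940904) stood at 4.59, 3.16 and 6.47 CPM in NFKO and at 20.4, 24.9 and 21.7 CPM in DKO, and Mut (41245567 to 41274873) at 93.1, 90.5 and 84.7 CPM in NFKO and at 53.5, 60.4 and 58.0 CPM in DKO. For Mut the AnkGKO libraries (77.8 and 79.2 CPM) lay between these groups.

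**Figure D2:**
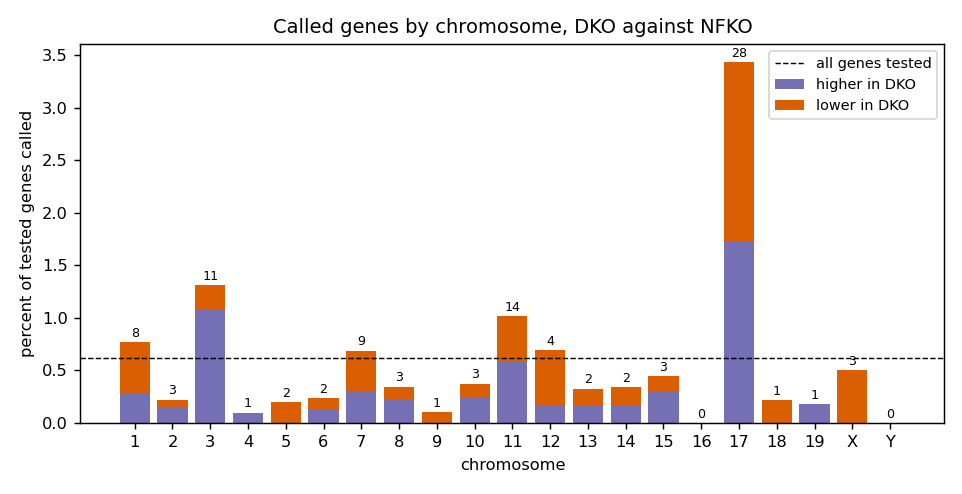
Bars give the percent of tested genes on each chromosome that were called in DKO against NFKO, split by direction, with the number called above each bar. The dashed line is the percent over all genes tested (0.615%), and chromosome 17 stands at 3.44%.

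A smaller set of genes differed from control in both single knockouts but not in DKO. AnkGKO against control called 29 genes, 0.165% of those tested, and the difference between its effect and that of DKO over NFKO, the interaction, was called for 0.53%. Of these, 9 were also called in DKO against NFKO, which was 31.0% of the AnkGKO list and 8.33% of the DKO list. In 3 of the 9 (Ank3, Phgdh and Colec10) the direction was the same, and in the other 6 it was opposite. Over the 108 genes, the log2 fold changes of the 2 comparisons had a Pearson correlation of -0.50 and a Spearman correlation of -0.42 as a description across genes, which are not independent, and 36 of 108 had the same sign.

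The 6 opposite genes were Rps3a, Gm5148, H2-Bl, Serpina3n, Serpina3f and Apoa2. Serpina3n, a secreted inhibitor of serine proteases and a marker of reactive astrocytes, stood at 237, 217 and 264 CPM in NFKO, 270 and 184 CPM in AnkGKO, 103, 89.7 and 84.2 CPM in DKO, and 70.4 to 75.7 CPM in the controls. The DKO libraries lay well below both single knockouts and just above the controls, with a log2 fold change of DKO over NFKO of -1.38 ± 0.13 (edgeR adjusted p = 0.000566). Its neighbour Serpina3f on chromosome 12 stood at 8.30, 7.43 and 8.79 CPM in NFKO and at 0.467, 0.0934 and 0.127 CPM in DKO. Serpina3m of the same cluster stood at 8.97, 8.22 and 8.38 CPM in NFKO and at 0.397, 0.0234 and 0 CPM in DKO. Both were high in AnkGKO (10.3 and 5.11 CPM for Serpina3f, 10.6 and 4.93 CPM for Serpina3m) and at or below 0.442 CPM in the controls. The log2 fold changes were -5.17 ± 0.61 and -5.99 ± 0.93 (edgeR adjusted p = 0.00557 and 0.0296). Serpina3f lost its call with Xist as a covariate (edgeR adjusted p = 0.187). Serpina3m lost its call in 7 of the 17 refits, among them those without NFKO replicate 1 or 2, at adjusted p-values of 0.0970 and 0.0765.

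H2-Bl, a class I MHC gene with no position in the annotation used, stood at 15.9, 14.0 and 21.2 CPM in NFKO, 11.1 and 11.2 CPM in AnkGKO, and 2.92, 1.56 and 2.62 CPM in DKO. The DKO range held the control range of 1.73 to 2.74 CPM, and the log2 fold change was -2.85 ± 0.25 (edgeR adjusted p = 0.000236). Rps3a went the other way, with 1.91, 0.559 and 1.60 CPM in NFKO, 0.371 and 0.413 CPM in AnkGKO, and 24.2, 22.8 and 26.4 CPM in DKO. Gm5148 stood at 0.153, 0.0193 and 0.186 CPM in NFKO and at 3.78, 3.20 and 3.91 CPM in DKO. The log2 fold changes were 4.17 ± 0.33 for Rps3a and 4.89 ± 0.51 for Gm5148 (edgeR adjusted p = 0.00033 and 0.00091). Apoa2, an apolipoprotein, had 58 counts over the NFKO libraries and 0 over DKO, at least 5.66-fold lower in DKO against a floor of 3 counts per library. Its call was lost with Xist or the meningeal genes as a covariate (edgeR adjusted p up to 0.171). Rps3a and its relatives are uncertain: 38.5% of the 50-base words in its transcripts also occur in other genes. For Rps2 the share was 25.5%, for Phgdh 28.1% and for Tagap 36.9%, so the same limit holds for these genes. Of the 101 called genes with transcripts in the annotation, 11 shared over 20% of such words with another gene.

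**Figure D3:**
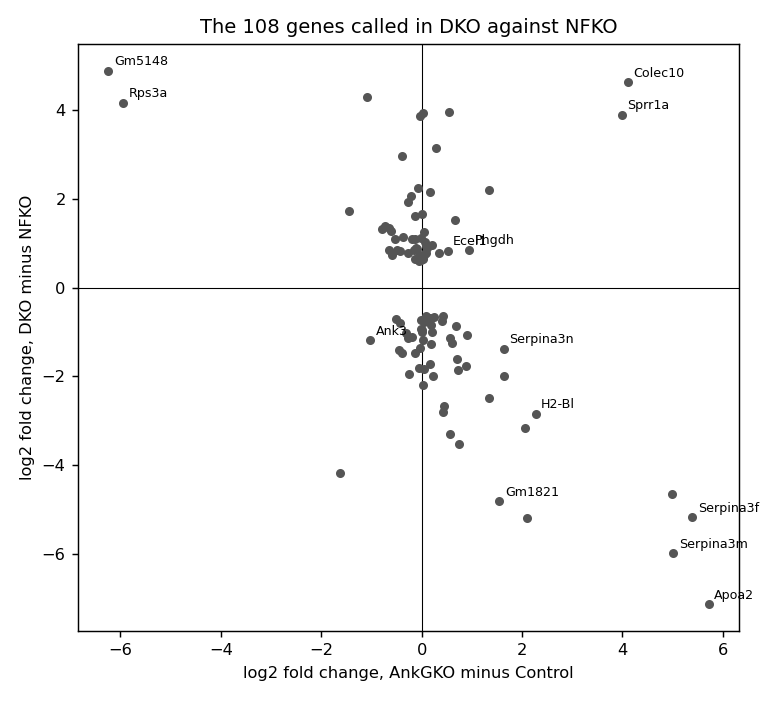
Each point is 1 of the 108 genes called in DKO against NFKO, with the log2 fold change of AnkGKO over control on the x axis and that of DKO over NFKO on the y axis; the comparisons share no library. Ank3, Phgdh and Colec10 lie in the quadrants of equal sign, and Serpina3f, Serpina3m, H2-Bl, Apoa2, Rps3a and Gm5148 in those of opposite sign.

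Among the 19 called genes whose control level was nearer to NFKO were several that had similar levels in the 2 genotypes with targeted Ank3. Ecel1, a membrane metallopeptidase induced by nerve injury, stood at 49.1, 41.8 and 45.3 CPM in NFKO and at 80.8, 85.3 and 75.9 CPM in DKO. The DKO libraries lay above all NFKO and control libraries (45.1 to 58.7 CPM in the controls), with AnkGKO at 70.0 and 75.9 CPM. Ecel1 had a log2 fold change of 0.83 ± 0.10 (edgeR adjusted p = 0.00149). Ecel1 was called in all 17 refits, and its fold change lies under a threshold of 1 on the log2 scale.

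Sprr1a, a small proline-rich protein made by injured neurons, stood at 0.268, 0.135 and 0.111 CPM in NFKO and at 2.29, 3.01 and 2.46 CPM in DKO. It was also high in AnkGKO, at 7.20 and 2.39 CPM, and at 0.0403 to 0.595 CPM in the controls. Its log2 fold change was 3.90 ± 0.71 (edgeR adjusted p = 0.0418), and the call was lost without any 1 of the 6 libraries (NFKO or DKO replicate 1, 2 or 3), with adjusted p-values of 0.0530 to 0.176. The promoter of Sprr1a (RefSeq, GRCm38.p6, chr3:92485882-92486131, minus strand, the 250 bases before the start) is shown because the gene is one of the largest increases among injury genes. Capitals mark the letters TGANTCA, the AP-1 motif, searched on both strands:
Sprr1a: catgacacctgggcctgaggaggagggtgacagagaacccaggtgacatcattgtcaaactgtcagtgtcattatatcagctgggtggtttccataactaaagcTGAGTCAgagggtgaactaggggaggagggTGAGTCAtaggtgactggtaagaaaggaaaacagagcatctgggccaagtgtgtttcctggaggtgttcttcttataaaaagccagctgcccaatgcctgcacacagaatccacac
The window held 2 matches. At least 1 match was in 6.75% of the 32851 promoters of that length, and a match is a description of letters only. Atf3, the injury-induced transcription factor, had a log2 fold change of 0.48 and was not called. Of the 15 tested axonal injury genes, 2 were called higher (Ecel1 and Sprr1a) and none lower, where 0.615% of all genes were called. The log2 fold change was above 0 for 12 and below 0 for 3, with a median of 0.11. At an unadjusted p under 0.05, 4 were higher and none lower, beside 7.86% and 8.29% of all genes.

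Phgdh, the first enzyme of serine synthesis, stood at 9.22, 7.13 and 9.42 CPM in NFKO and at 16.1, 14.8 and 15.5 CPM in DKO. AnkGKO was higher still, at 19.4 and 18.7 CPM, and the controls stood at 8.50 to 12.4 CPM. Its log2 fold change was 0.85 ± 0.15 (edgeR adjusted p = 0.0244). Slc7a5, the large neutral amino acid transporter, rose by 0.61 ± 0.11 on the log2 scale (edgeR adjusted p = 0.0244), from 79.7, 75.4 and 94.5 CPM to 133, 122 and 125 CPM, with AnkGKO at 96.6 and 117 CPM and the controls at 97.7 to 124 CPM. Without NFKO replicate 1, NFKO replicate 2, DKO replicate 1 or DKO replicate 3 neither gene was called, with adjusted p-values of 0.0649 to 0.0998 for Phgdh and 0.0713 to 0.104 for Slc7a5. Both belong to the list of 19 genes of the integrated stress response, in which Atf4, Ddit3 and 15 other genes were not called and the median log2 fold change was 0.01. At an unadjusted p under 0.05, 6 of the 19 were higher and 5 lower, beside 7.86% and 8.29% of all genes. Hspa5 was among the lower, at -0.48 on the log2 scale.

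Colec10, a collectin, had 2 counts over the NFKO libraries and 53 over DKO, a ratio of 29.8 (95% exact Clopper-Pearson interval 7.85 to 252, counting error only). It was at 0.908 and 0.5 CPM in AnkGKO and at or below 0.0476 CPM in the controls (edgeR adjusted p = 0.0104). Colec10 lost its call with only the 6 libraries and with Xist or the meningeal genes as a covariate (edgeR adjusted p up to 0.168). Mcf2, a guanine nucleotide exchange factor on the X chromosome, stood at 40.7, 34.6 and 40.2 CPM in NFKO and at 22.4, 22.4 and 25.2 CPM in DKO. AnkGKO was at 21.3 and 23.6 CPM, and the log2 fold change was -0.72 ± 0.09 (edgeR adjusted p = 0.00217). With Xist as a covariate Mcf2 had a log2 fold change of -0.63 and an adjusted p of 0.131.

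Uts2, the peptide urotensin II of motor neurons, stood apart in DKO alone. Its level was 9.49, 6.53 and 9.36 CPM in NFKO, 22.8, 27.0 and 22.8 CPM in DKO, 6.23 and 6.41 CPM in AnkGKO, and 2.36 to 5.67 CPM in the controls. The log2 fold change over NFKO was 1.52 ± 0.26 (edgeR adjusted p = 0.0264), and the call was lost without NFKO replicate 1 or 2 or DKO replicate 1 or 3, at adjusted p-values of 0.0610 to 0.0927. Uts2 was the 1 called gene of 17 tested genes of cholinergic motor neurons, of which 14 had a log2 fold change above 0. Their median was 0.52, and it ran from -0.015 to 0.85 over the 17 refits. Agt, the angiotensinogen made by astrocytes, stood at 191, 185 and 228 CPM in NFKO and at 481, 320 and 312 CPM in DKO, above all other libraries, with a log2 fold change of 0.88 ± 0.16 (edgeR adjusted p = 0.036). It lost its call without NFKO replicate 1 or 2, at adjusted p-values of 0.138 and 0.159.

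**Figure D4:**
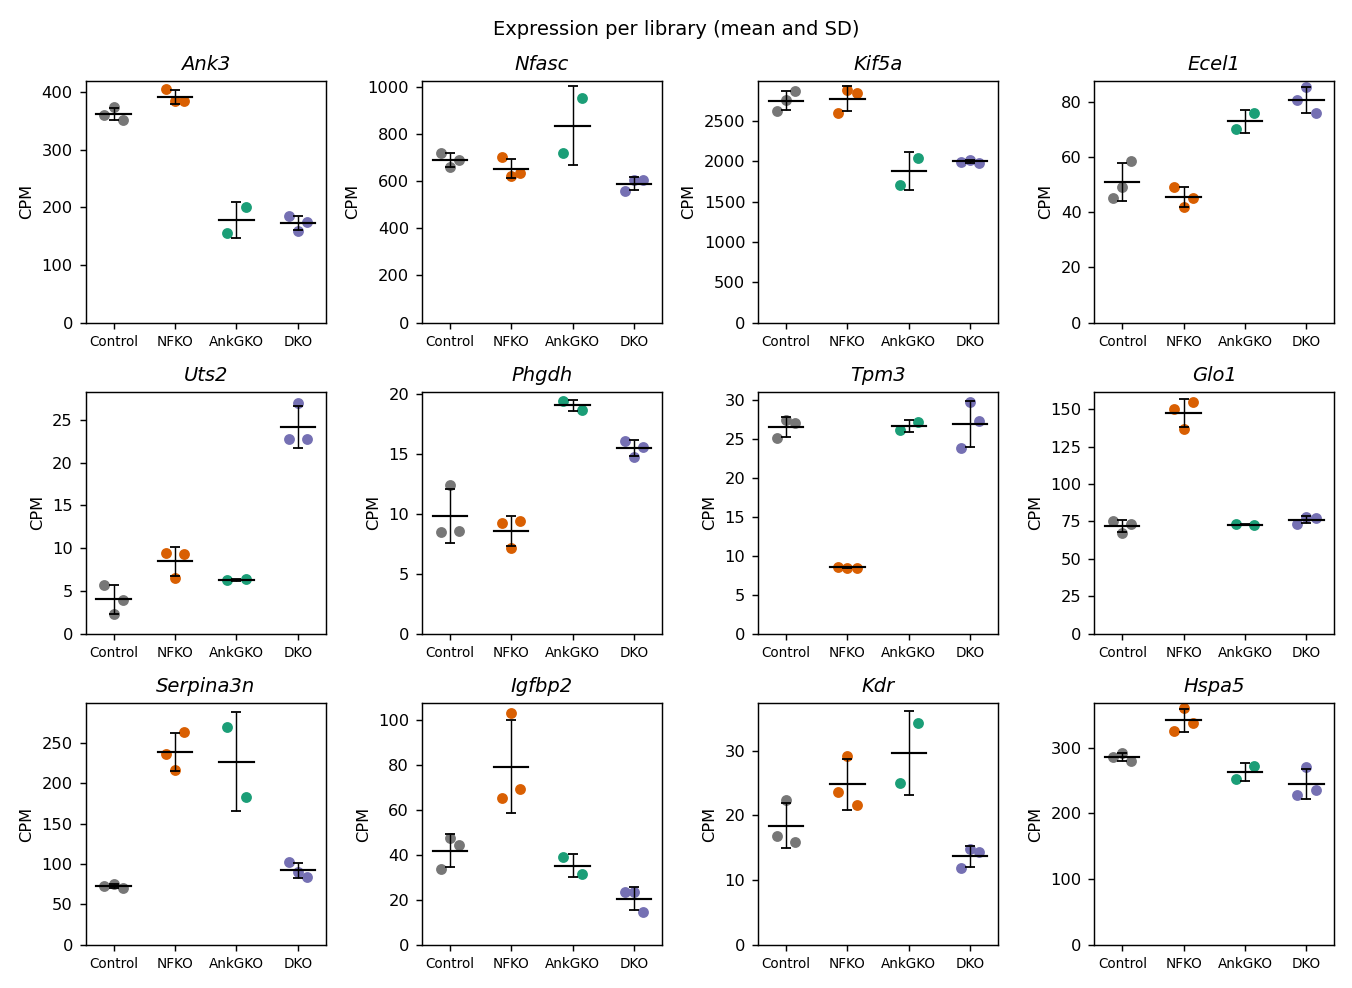
CPM of 12 genes in each library of the 4 genotypes, on linear axes from 0; points are libraries, long bars the mean and error bars the SD (n = 3, or 2 for AnkGKO). Ank3 and Kif5a are low in AnkGKO and DKO, Tpm3 and Glo1 stand apart in NFKO, Serpina3n is high in both single knockouts, and Uts2 is high in DKO.

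Below the fold threshold, 2 of 20 tested genes of neurofilaments and axonal transport passed the adjusted p, both lower in DKO, while the median log2 fold change of the list was 0.09. Kif5a, a neuronal kinesin heavy chain, stood at 2601, 2879 and 2850 CPM in NFKO and at 1994, 2021 and 1981 CPM in DKO. AnkGKO was as low (1710 and 2040 CPM) and the controls as high as NFKO (2626 to 2866 CPM). Kif5a had a log2 fold change of -0.47 ± 0.08 (edgeR adjusted p = 0.0123), and the adjusted p was 0.0513 to 0.0565 without NFKO replicate 2, DKO replicate 1 or DKO replicate 3. Kif5b, the ubiquitous form, stood at 704, 657 and 637 CPM in NFKO and at 502, 468 and 478 CPM in DKO, with AnkGKO at 435 and 511 CPM. Its log2 fold change was -0.46 ± 0.09 (edgeR adjusted p = 0.0296), with adjusted p-values of 0.0643 to 0.116 without NFKO replicate 1 or 2 or DKO replicate 1 or 3. Rapgef4, a cAMP-activated guanine nucleotide exchange factor, stood at 263, 283 and 285 CPM in NFKO and at 209, 190 and 202 CPM in DKO, with AnkGKO at 189 and 204 CPM; it was named after its values were seen. Its log2 fold change was -0.47 ± 0.06 (edgeR adjusted p = 0.00557), and its highest adjusted p over the 17 refits was 0.163 (edgeR or DESeq2). Of the 12 ankyrins, spectrins and adducins only Ank3 was called, and none of 16 sodium channel genes, 19 potassium channel genes or 11 genes of the L1 family and paranode was. At an unadjusted p under 0.05 the latter 3 lists had 4, 2 and 3 genes, where 16.2% of all genes passed.

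Of the 12 genes that the study named for DKO against control, Kif5a, Kif5b, Shank3 and Sparc passed the adjusted p, and none passed the fold threshold; the study chose these genes on these samples, so they are no independent evidence of a direction. Shank3, a scaffold of the postsynaptic density, stood at 101, 107 and 88.2 CPM in NFKO and at 67.2, 75.2 and 69.9 CPM in DKO, a log2 fold change of -0.48 ± 0.09 (edgeR adjusted p = 0.031). Sparc, a matricellular protein of glia and vessels, stood at 1444, 1486 and 1626 CPM in NFKO and at 2253, 1859 and 2046 CPM in DKO, a log2 fold change of 0.43 ± 0.08 (edgeR adjusted p = 0.0341). Each lost the adjusted p without NFKO replicate 1 or 2 or DKO replicate 1 or 3, at 0.107 to 0.126 for Shank3 and 0.0994 to 0.134 for Sparc. The others did not pass (edgeR adjusted p between 0.0647 and 0.956): Apoe at 0.29, Clu at 0.25, Stat3 at 0.35, C3 at 0.39, Nos2 at -0.12, Gria1 at -0.05, Dlg4 at -0.01 and Kcnk2 at -0.21 on the log2 scale.

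None of the 4 genes named by the study for this comparison was called. Car8, a Purkinje cell protein that binds the IP3 receptor, stood at 197, 23.4 and 8.03 CPM in NFKO and at 14.8, 8.92 and 7.64 CPM in DKO. NFKO replicate 1, the library with the most Pcp2, was far above the rest, and NFKO replicate 3 lay within the DKO range. The log2 fold change was -2.87 ± 1.48 (edgeR adjusted p = 0.392). Necab1, a calcium-binding protein, stood at -0.11, Chl1, an adhesion molecule of the L1 family, at -0.28, and Cxcr4, a chemokine receptor, at -0.21 on the log2 scale (edgeR adjusted p = 0.871, 0.348 and 0.629). For Cxcr4 the libraries overlapped, at 3.87 to 6.22 CPM in NFKO and 4.09 to 5.37 CPM in DKO. The 26 Purkinje cell genes included none that was called, and 24 of them had a log2 fold change below 0 (median -0.34, and -0.81 to -0.0056 over the 17 refits). Their summed level was 4435, 2921 and 3107 CPM in NFKO and 3174, 3133 and 3264 CPM in DKO. Every DKO sum was thus above NFKO replicates 2 and 3 and below replicate 1. The sum is weighted toward its most expressed member, Aldoc, and need not follow the other members. Aldoc was at 0.16 and Pcp2 at -5.18 on the log2 scale (edgeR adjusted p = 0.370 and 0.341).

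Several single genes of blood vessels and connective tissue were called lower in DKO. Igfbp2, a carrier of insulin-like growth factors that is strong in the meninges, stood at 65.6, 103 and 69.4 CPM in NFKO and at 23.5, 23.5 and 14.5 CPM in DKO, with the controls between (34.0 to 47.6 CPM). Igfbp2 had a log2 fold change of -1.95 ± 0.25 (edgeR adjusted p = 0.00869). It lost its call with only the 6 libraries and with Xist as a covariate (edgeR adjusted p up to 0.176). Kdr, the endothelial VEGF receptor, stood at 23.5, 29.2 and 21.6 CPM in NFKO and at 11.9, 14.8 and 14.4 CPM in DKO, below every other library. Its log2 fold change was -0.86 ± 0.17 (edgeR adjusted p = 0.0452), and it was called only without NFKO replicate 3 when single libraries were left out, with adjusted p-values of 0.0570 to 0.152 without NFKO replicate 1 or 2 or DKO replicate 1, 2 or 3. Further called genes were Col4a1, a basement membrane collagen (-0.85), Mmrn2, an endothelial matrix protein (-0.73), Apln, the peptide apelin (-0.71), Loxl1, which crosslinks elastin (-1.41), Sulf1, a heparan sulphatase (-1.01), and Itgb4, an integrin of basement membranes (-0.65); these 6 were grouped after their values were seen. Mmrn2 alone among them kept its call without each library in turn. It lost the call with Xist or the meningeal genes as a covariate (edgeR adjusted p up to 0.162). Without single libraries the adjusted p of the others reached 0.152 for Col4a1, 0.0548 for Apln, 0.0779 for Loxl1, 0.126 for Sulf1 and 0.0994 for Itgb4. Calls were lost without DKO replicate 1 or 3 for all 5, and also without NFKO replicate 2 or 3 for Col4a1, NFKO replicate 1 for Loxl1, NFKO replicate 1 or 2 for Sulf1, and NFKO replicate 1 or 3 for Itgb4 (by its fold change of -0.56 without NFKO replicate 3).

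Over the lists, 1 of 22 endothelial and pericyte genes (Kdr) and 1 of 22 meningeal and collagen genes (Igfbp2) were called lower and none higher, with 9 and 5 lower at an unadjusted p under 0.05. The endothelial count was 4 without NFKO replicate 2, 5 without DKO replicate 1, and 2 with Xist or with the meningeal genes as a covariate. Their median log2 fold changes were -0.32 and -1.44, against 0.00 for all genes, and ran over the 17 refits from -0.41 to -0.099 and from -1.78 to 0.038. The summed level of the meningeal list was 3541, 5874 and 4165 CPM in NFKO and 4424, 3253 and 3097 CPM in DKO, so that the groups overlapped and NFKO replicate 2 was the highest. That library also had the most skeletal muscle RNA (836 CPM summed over 19 genes, beside 106 to 411 CPM in DKO). With the meningeal list as a covariate, chosen after seeing the data, Kdr had a log2 fold change of -0.79 and an adjusted p of 0.237.

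Among chaperones of the endoplasmic reticulum, 4 passed the adjusted p, lower in DKO by small folds. Hspa5 (BiP), the main chaperone and stress sensor partner of that compartment, stood at 325, 361 and 338 CPM in NFKO and at 228, 271 and 236 CPM in DKO. The groups did not overlap, with the controls between them (280 to 292 CPM). For Hspa5 the log2 fold change was -0.48 ± 0.07 (edgeR adjusted p = 0.00904), and without single libraries it stayed past the threshold in all 6 fits. Over all 17 refits its highest adjusted p was 0.115 (edgeR or DESeq2). Calr, the lectin chaperone calreticulin, Hsp90b1, the HSP90 of the compartment, and Dnajb11, a cochaperone of BiP, had log2 fold changes of -0.51, -0.44 and -0.29 (edgeR adjusted p = 0.0452, 0.0487 and 0.0367). Without single libraries the adjusted p reached 0.168 for Calr, 0.176 for Hsp90b1 and 0.126 for Dnajb11, each without NFKO replicate 2; it was under 0.05 only without DKO replicate 2 for Calr and Dnajb11 and only without NFKO replicate 3 for Hsp90b1.

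A group of 13 such genes was drawn up after these values were seen. All 13 had a log2 fold change below 0, from -0.80 (Sdf2l1) to -0.12 (Dnajc3), with a median of -0.34. None was called, 4 passed the adjusted p, and 12 were lower at an unadjusted p under 0.05, as were 8.29% of all genes. Over the alternative fits all 13 stayed below 0, and between 8 and 12 were lower at an unadjusted p under 0.05.

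Many of these genes carry the endoplasmic reticulum stress element, through which the unfolded protein response is known to act. The promoters of the 3 with a match among the 4 that passed the adjusted p are shown for that reason, Dnajb11 having no match, each as the 250 bases before the RefSeq start in GRCm38.p6, with matches to CCAAT and CCACG set 9 bases apart, on either strand, in capitals. They lie at chr2:34771840-34772089 (Hspa5, plus strand), chr8:84846932-84847181 (Calr, minus strand) and chr10:86705445-86705694 (Hsp90b1, minus strand):
Hspa5: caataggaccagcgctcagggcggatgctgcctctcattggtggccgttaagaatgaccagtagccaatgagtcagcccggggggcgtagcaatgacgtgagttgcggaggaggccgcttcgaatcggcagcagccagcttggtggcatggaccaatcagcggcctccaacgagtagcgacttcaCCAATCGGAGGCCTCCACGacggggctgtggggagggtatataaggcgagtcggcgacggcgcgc
Calr: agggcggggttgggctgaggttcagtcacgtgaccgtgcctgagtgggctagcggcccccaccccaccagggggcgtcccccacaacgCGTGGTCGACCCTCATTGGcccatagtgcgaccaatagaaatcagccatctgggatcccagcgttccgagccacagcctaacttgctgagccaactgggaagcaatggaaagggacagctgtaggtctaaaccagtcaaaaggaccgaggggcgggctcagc
Hsp90b1: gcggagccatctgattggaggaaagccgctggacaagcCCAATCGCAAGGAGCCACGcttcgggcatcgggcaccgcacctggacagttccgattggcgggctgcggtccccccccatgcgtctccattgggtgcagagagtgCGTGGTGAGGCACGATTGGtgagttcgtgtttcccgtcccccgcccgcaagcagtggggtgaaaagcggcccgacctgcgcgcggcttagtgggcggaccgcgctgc
Of the 13 genes, 11 had a promoter in the table and 7 of these held at least 1 match, against 0.113% of all 32851 promoters. The element was first described in genes of this kind, so the share describes the group and not its change.

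Cholesterol synthesis is a pathway sensitive to the sterol content of cells. Of its 22 tested genes, none was called or passed the adjusted p, 21 had a log2 fold change below 0 (median -0.25), and 12 were lower at an unadjusted p under 0.05 and none higher. The count was 3 without DKO replicate 1 and 4 without NFKO replicate 1, so it rested on those libraries. Of 27 interferon response genes, none was called, 24 were below 0 (median -0.44), and 12 were lower at an unadjusted p under 0.05; that count was 8 (without NFKO replicate 2 or DKO replicate 1) to 16 without single libraries, and 4 with the meningeal genes as a covariate.

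Serpina3n was the 1 called gene of the lists of reactive glia. Of 26 reactive astrocyte genes, Serpina3n was called lower and none higher, with 9 higher and 5 lower at an unadjusted p under 0.05. Gfap, the intermediate filament of astrocytes, stood at 1537, 1495 and 1398 CPM in NFKO and at 2238, 3048 and 1982 CPM in DKO. These did not overlap, and the log2 fold change of 0.71 ± 0.16 did not pass the adjusted p (0.0776, edgeR), which it did without DKO replicate 3 (0.0429). Gfap was called in 3 of the 17 refits, and over all 17 its adjusted p ran from 0.00012 to 0.41 (edgeR or DESeq2). C4b, the complement component, stood at 46.3, 56.4 and 47.5 CPM in NFKO and at 99.0, 102 and 96.6 CPM in DKO (log2 fold change 0.98 ± 0.23, edgeR adjusted p = 0.101). It was called in 3 of the 17 refits, those with DESeq2, with only the 6 libraries and with the meningeal genes as a covariate. Of 24 genes of activated microglia none was called, 20 had a log2 fold change above 0 (median 0.19), and 8 were higher and 1 was lower at an unadjusted p under 0.05, where 7.86% of all genes were higher. The count of higher genes was 4 without DKO replicate 2, 5 without NFKO replicate 3, and 1 with Xist as a covariate (median 0.013). Fabp5, a fatty acid binding protein of the glial lipid list, had a log2 fold change of -0.56 (edgeR adjusted p = 0.0428), under the fold threshold, and its adjusted p was 0.0727 to 0.139 without any 1 library but DKO replicate 2.

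**Figure D5:**
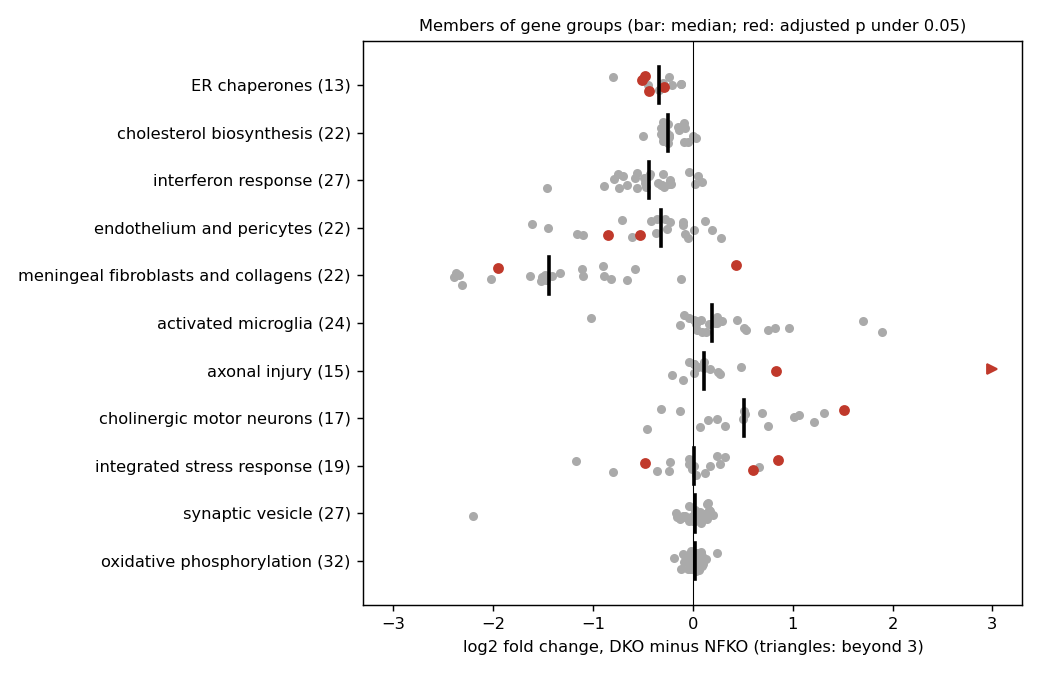
Each point is a gene, with its log2 fold change of DKO over NFKO on the x axis, in rows by gene group with the number tested in brackets; black bars are medians, and red points passed an adjusted p under 0.05. The medians of the ER chaperones (-0.34), cholesterol (-0.25) and interferon (-0.44) genes lie below 0, and those of synaptic vesicle and oxidative phosphorylation genes at 0.02.

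In the MHC and antigen presentation list of 26 tested genes, H2-Bl was called lower and H2-M3, a class I gene that presents formylated peptides, was called higher. H2-M3 stood at 3.16, 3.52 and 2.84 CPM in NFKO and at 5.72, 5.14 and 6.21 CPM in DKO, a log2 fold change of 0.84 ± 0.15 (edgeR adjusted p = 0.0238), with AnkGKO at 3.24 and 3.15 CPM. It lost its call without NFKO replicate 1 or 3 or DKO replicate 1 or 3, at adjusted p-values of 0.0629 to 0.0962. Of 26 genes of ependymal cells and motile cilia, Dnahc5, an axonemal dynein, was called lower at a log2 fold change of -0.72 (edgeR adjusted p = 0.0336), and it lost its call without any 1 of the 6 libraries (NFKO or DKO replicate 1, 2 or 3), at 0.0524 to 0.126. None of 27 synaptic vesicle, 27 postsynaptic density or 32 oxidative phosphorylation genes was called, with medians of 0.02, -0.05 and 0.02. At an unadjusted p under 0.05 they had 3, 1 and 1 genes, where 16.2% of all genes passed.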

How the data were processed

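Polyadenylated RNA from 11 libraries was sequenced. Per the labels, the authors used Trimmomatic 0.39, STAR 2.7.11a and GRCm39 and deposited whole-number counts of reads per gene symbol. Reads are given as single-end of 100 bases in the labels and as paired in the paper, the paper names the GeneCounts option of STAR for counting although the 5 summary lines of the table are not of its form, and the strand setting of the counting is not given in the sources used here. A second deposited table of normalized values was not used. The 5 summary lines, 42.7% to 43.8% of each library's total (mostly reads aligned to several places, 32.5% to 34.3%), were left out, and a gene was kept where its counts over the 11 libraries came to 10 or more. Reads that align to several places were thus lost from genes with near-identical copies.

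Counts were tested with edgeR 4.0.16 in R 4.3.3 (TMM factors, robust quasi-likelihood fit over 4 genotypes, contrast DKO minus NFKO, Benjamini-Hochberg adjustment over 17557 genes). Calls needed an adjusted p under 0.05 and a log2 fold change of 0.6 or more in size. The interaction was the effect of DKO over NFKO minus that of AnkGKO over control. DESeq2 1.42.0 was an alternative, as were other filters and factors, the 6 libraries alone, covariates, a replicate block, other fold thresholds and leaving out each library. Nothing in the labels says what a replicate number stands for, nor that libraries of a group are from separate litters, so p-values measure the spread between these samples. No 2 libraries of a group agreed within counting noise.

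Positions and transcripts came from GENCODE vM39 (GRCm39), where 18197 symbols were found directly, 2246 as synonyms and 2166 not at all; promoters came from RefSeq (GRCm38.p6). Named are both targeted genes, the genes the study named, the 15 higher and 15 lower called genes with the smallest p-values whose libraries do not overlap, called genes of the lists or within 20 Mb of Ank3 or Nfasc, and examples of lists. Genes and lists were chosen with earlier results of these data known, and Colec10, Agt, Ublcp1, Gm1821, Rapgef4, the Serpina3 and Apoa2 genes, the vascular genes outside the lists and the chaperones were named after their values were seen. Imaging, behaviour and qRT-PCR were not analysed here.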

Additional observations from a re-analysis of the deposited data

Results flagged for a closer look

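The difference of DKO over NFKO was unlike that of AnkGKO over control for 93 genes by the interaction term of the same edgeR fit (adjusted p under 0.05 and a log2 value of 0.6 or more in size, 0.53% of genes tested). AnkGKO and control also differ in Pcp2-Cre, as DKO and NFKO do not, the strain background of each mouse is not in the labels, and many of these genes stood apart in NFKO, so the interaction cannot be told apart from these differences. The genes named here that passed this test are given by the interaction on the log2 scale, the effect of DKO over NFKO minus that of AnkGKO over control. Above 0 were Tpm3 at 1.66, Rnps1 at 1.23, Wdfy1 at 2.20, Pkmyt1 at 1.73, Alpk1 at 1.28, Tifa at 1.51, Rps2 at 2.30, Cyp39a1 at 1.24, Rnf41 at 0.63, Tagap at 3.36, Tmem41b at 0.96, Scnm1 at 1.33, H2-M3 at 1.49 and Ublcp1 at 1.63. Rps3a at 10.1 and Gm5148 at 11.1 were the highest of these, since both were low in each single knockout. Below 0 were Glo1 at -0.97, Lyrm7 at -2.21, Hddc3 at -1.88, Cyb5r2 at -3.11, H2-Bl at -5.12, Mut at -1.08, Dlk2 at -2.64, Tmem144 at -0.91, Adora2b at -1.01, H2-T24 at -2.59, 3110052M02Rik at -0.79, Prss41 at -4.27, Kdr at -1.54, Fabp5 at -0.99 and Gm1821 at -6.37. The serine protease inhibitors Serpina3n at -3.01, Serpina3f at -10.6 and Serpina3m at -11.0 were high in both single knockouts, as was Apoa2 at -12.9, a fitted value that depends on the prior count because DKO had 0 counts. Ank3, Ecel1, Sprr1a, Phgdh, Colec10, Uts2, Kif5a, Kif5b and Rapgef4 did not pass the interaction test, which does not show that the effects were equal.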

How the results depend on the processing

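Ank3 kept its direction and its call in all 17 refits, and Nfasc stayed below 0 and uncalled. The main counts were 108 called genes (52 higher, 56 lower), 28 on chromosome 17 and 93 for the interaction. DESeq2 called 418 (162 higher, 256 lower), 51 on chromosome 17 and 318 for the interaction. With no fold threshold 80 genes were higher, and at an absolute log2 fold change of 1, 69 were called and 30 were higher. Using only the 6 libraries gave 75 calls, 33 of them higher. Xist as a covariate gave 42 calls (16 higher, 26 lower), 11 on chromosome 17 and 19 for the interaction. The alternatives chosen after seeing the data were meningeal genes as a covariate, with 49 calls (24 higher, 25 lower) and 14 on chromosome 17, and leaving out NFKO replicate 1 and control replicate 1, the libraries with the most Pcp2, with 59 calls (29 higher, 30 lower) and 42 for the interaction. The cause of these shifts was not tested.

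Without single libraries the calls ranged from 68 (without NFKO replicate 1) to 162 (without DKO replicate 2), the higher genes from 32 to 62, the lower genes from 36 (without NFKO replicate 1 or DKO replicate 1) to 100 (without DKO replicate 2), and the interaction from 61 (without DKO replicate 3) to 103. With the replicate block 85 genes were called, 74 of them among the 108. The block rests on a shared number only: same-numbered NFKO and DKO libraries correlated at 0.0556, 0.454 and 0.273 in their deviations from the group means, and NFKO replicate 1 and DKO replicate 1 did not correlate best with their own number.

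Log2 fold changes that changed sign were those of uncalled genes. With granule cell genes as a covariate Nos2 was at 0.24 and Gria1 at 0.026; with Xist Necab1 was at 0.14, Kcnk2 at 0.083 and Ddx3y at 2.24; with meningeal genes Necab1 was at 0.35 and Kcnk2 at 0.12; and without the libraries with the most Pcp2 Nos2 was at 0.18 and Gria1 at 0.046. Without single libraries the range was -0.44 to 0.18 for Nos2, -0.17 to 0.046 for Gria1, -0.26 to 0.11 for Necab1 and -0.028 to 0.014 for Dlg4. Depth limits genes under about 1 CPM, which 21 of the called genes were.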
